A study of Arabidopsis thaliana with 6 samples.

Results

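The cysteine-rich receptor-like kinases (CRKs) of Arabidopsis were examined for H3K27me3, the trimethylation of lysine 27 of histone H3. Members were all protein-coding genes whose symbol in the TAIR10.1 annotation is CRK and a number and whose product is a cysteine-rich receptor-like kinase. The rule gave 38 of 27444 protein-coding nuclear genes, and 2 further genes with a CRK symbol, which encode CDPK-related kinases, were left out. A total of 34 members lie on chromosome 4, 2 on chromosome 1 and 1 each on chromosomes 3 and 5. All libraries came from 14-day-old seedlings. The brm seedlings carried brm-1, a T-DNA null allele of BRAHMA (BRM), and the wt seedlings were wild-type Columbia, the background of the mutant. Each genotype gave 2 libraries from chromatin precipitated with an antibody to H3K27me3, and 1 from input chromatin that was not precipitated. Seedlings hold many cell types, so a mark in fewer cells and less of it in each cell cannot be told apart. The methods describe the replicates as biologically independent but do not say whether they were planted apart, and p-values measure only the spread between these libraries.

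A CRK is a membrane protein with an outer part made of DUF26 repeats, a single crossing of the plasma membrane and a serine/threonine kinase inside the cell. DUF26 is a domain with a conserved spacing of cysteines. Many CRK genes respond to pathogens, salicylic acid and reactive oxygen species, and many sit side by side as copies of one another. Polycomb repressive complex 2 lays down H3K27me3 over genes that are held silent, whereas BRM is the ATPase of a SWI/SNF complex that moves nucleosomes. The comparison of brm with wt asks whether the loss of that ATPase alters H3K27me3 over these genes.

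The ChIP libraries held 9593473 and 8408612 nuclear reads in brm and 8563827 and 9051298 in wt, and the inputs held 5676681 in brm and 6342835 in wt. In the ChIP libraries 23.4% to 38.2% of reads had a position and strand of their own, compared with 80.0% in the brm input and 68.9% in the wt input. Over a single member there were 5 to 1942 ChIP reads in a library and 101 to 243 input reads. The BRM gene itself had 18.9 and 20.5 RPM (reads per 1000000 nuclear reads) in brm and 14.5 and 15.4 RPM in wt (log2 fold change 0.40 ± 0.35 (SE), adjusted p = 0.855, edgeR). A T-DNA insertion leaves the rest of a gene in place, so this value does not check the genotype.

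The coding sequence of every member holds at least 1 stretch with the cysteine spacing of DUF26, in which 8 residues separate the first cysteine from the second and 2 separate the second from the third. A total of 35 members have 2 such stretches, CRK23 has 3, and CRK24 and CRK27 have 1. Of the 75 stretches, 71 lie in the first coding exon. They start at a median of 614 bp from the annotated start of the gene. The first stretch of each member on which the results below turn is shown from the TAIR10.1 genome, 5′ to 3′ on the coding strand, with the 3 cysteine codons in capitals.
CRK4 (chr3:16865739-16865777, minus strand): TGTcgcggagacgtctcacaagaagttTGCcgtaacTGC
CRK42 (chr5:16152388-16152426, plus strand): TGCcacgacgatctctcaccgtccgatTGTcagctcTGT
CRK36 (chr4:2234375-2234413, minus strand): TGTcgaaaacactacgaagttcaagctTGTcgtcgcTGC
CRK37 (chr4:2238648-2238686, plus strand): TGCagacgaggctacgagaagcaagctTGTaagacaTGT
CRK38 (chr4:2242344-2242382, plus strand): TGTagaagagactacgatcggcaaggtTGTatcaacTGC
CRK33 (chr4:6979082-6979120, plus strand): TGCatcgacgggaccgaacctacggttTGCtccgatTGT
CRK7 (chr4:12125983-12126021, plus strand): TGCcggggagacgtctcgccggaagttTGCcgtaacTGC
CRK6 (chr4:12121652-12121690, plus strand): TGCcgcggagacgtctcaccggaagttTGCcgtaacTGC
CRK23 (chr4:12185995-12186033, plus strand): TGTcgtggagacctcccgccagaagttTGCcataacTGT
CRK12 (chr4:12147674-12147712, minus strand): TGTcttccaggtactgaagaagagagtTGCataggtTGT
The stretches of CRK4, CRK42, CRK36, CRK37, CRK38, CRK7 and CRK23 lay inside H3K27me3 regions of both genotypes, and that of CRK33 lay inside a region of brm alone. The stretches of CRK6 and CRK12 lay in no region. CRK6 differs from CRK4 at 3 of the 39 bases shown and from CRK7 at 2. The level of the mark, given below, also differed among the 3 genes. Only 67.0% of the 37-base windows of CRK6 occur once in the nuclear genome, so its level rests on part of the gene. In all, 16 of the 75 stretches in brm and 15 in wt were inside a region.

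H3K27me3 was highest over CRK4 and CRK42, which lie on chromosomes 3 and 5, away from the arrays. The level is given as the ratio to input, which is the RPM of a ChIP library over the gene span divided by the RPM of the input of the same genotype. CRK4 (AT3G45860, chr3:16863088-16866261), whose product associates with the flagellin receptor FLS2, had ratios of 6.84 and 5.20 in brm and 5.86 and 6.22 in wt. CRK42 (AT5G40380, chr5:16151522-16155215) had ratios of 4.20 and 3.61 in brm and 3.41 and 4.81 in wt. For both genes the libraries of the genotypes overlapped. CRK4 averaged 6.02 ± 1.16 in brm and 6.04 ± 0.26 in wt (SD, n = 2 each), which placed it above 93.2% and 91.7% of the 26837 protein-coding genes with at least 10 reads in each input. The median over those genes was 0.17 in brm and 0.20 in wt.

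Over the 38 members the median ratio was 0.44 in brm and 0.46 in wt, and the range ran from 0.039 to 6.02 in brm and from 0.037 to 6.04 in wt. Members outside the arrays divided sharply. CRK4 and CRK42 were high, and the means of the other 8 reached only 0.17 in brm, at CRK41, and 0.19 in wt, at CRK2. CRK29 (AT4G21410) had ratios of 0.031 and 0.066 in brm and 0.032 and 0.042 in wt, the lowest mean in wt. CRK27 had 0.022 and 0.056 in brm and 0.049 and 0.11 in wt. These values rest on few reads: CRK27 had 5 and 11 ChIP reads in brm and 10 and 24 in wt. CRK28 and CRK25 were also among the 6 lowest in wt, with means of 0.062 ± 0.029 and 0.072 ± 0.026 in brm and 0.088 ± 0.050 and 0.081 ± 0.040 in wt (SD, n = 2 each). CRK3 completed the 6, with 0.083 and 0.17 in brm and 0.059 and 0.20 in wt. CRK28, which associates with the co-receptor BAK1, and CRK29 share 470 bp of their annotated spans, so reads there counted for both. CRK2, a kinase that phosphorylates the NADPH oxidase RBOHD, had 0.12 and 0.077 in brm and 0.17 and 0.21 in wt.

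**Figure D1:**
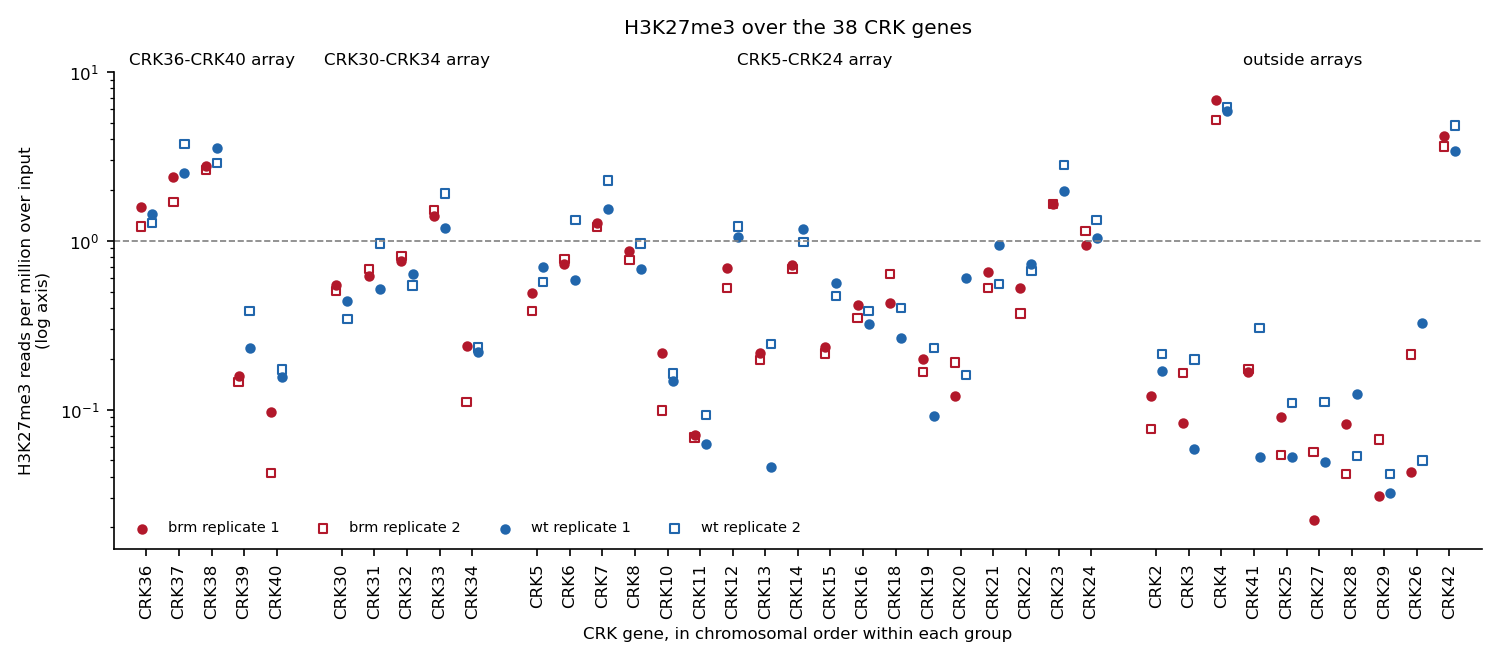
Ratio of H3K27me3 RPM to input RPM over each CRK gene span, on a log axis, with 1 point per library (brm in red, wt in blue, filled circles for replicate 1 and open squares for replicate 2) and a dashed line at a ratio of 1. CRK4 and CRK42 lie above 3 in all 4 libraries, 8 members outside the arrays lie below 0.4, and most array members lie between these groups.

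Tandem arrays, 3 in number, were defined as runs of 3 or more members with at most 3 other protein-coding genes between neighbours, and all are on chromosome 4. The CRK36-CRK40 array (chr4:2231717-2292965) has 5 members over 61.2 kb, the CRK30-CRK34 array (chr4:6963521-6989793) has 5 over 26.3 kb and the CRK5-CRK24 array (chr4:12117491-12191704) has 18 over 74.2 kb. Together they hold 28 members and 7 other protein-coding genes.

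The arrays carried H3K27me3 at a level between that of unmarked and marked genes. The median ratio of the 28 array members was 0.56 in brm and 0.67 in wt. A median at such a level was not particular to genes with a CRK symbol. The 7 other protein-coding genes inside the arrays had medians of 0.48 in brm and 0.72 in wt. They are not free of CRK sequence. EMB1290, whose own wt ratio is that 0.72, is a cysteine-rich receptor-like kinase without a CRK symbol. It shares 1190 bp of its span with CRK16, and AT4G23271 shares 102 bp with CRK19. The 30 protein-coding genes nearest to the arrays, 5 on each side, had 0.53 in brm and 0.61 in wt. Those 30 were a mix of high and low genes, so their medians do not show a level that single genes shared. AT4G23120 had mean ratios of 6.70 in brm and 6.67 in wt, and EIF3A had 0.055 in brm and 0.12 in wt. Protein-coding genes with no H3K27me3 region had an upper quartile of 0.20 in brm and 0.24 in wt, and genes marked by a region had a lower quartile of 2.87 in brm and 3.09 in wt. Of the 28 array members, 21 in brm and 20 in wt lay between those quartiles. Among protein-coding genes 28.5% in brm and 28.4% in wt did so. In wt CRK37 and CRK38, with means of 3.13 and 3.22, lay above both quartiles, and in brm no array member did. None of the 10 members outside the arrays lay between them in either genotype. The bounds were chosen after the values were seen, and neighbours in an array share their surroundings, so these are counts and not a test.

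Within the CRK36-CRK40 array the mark was confined to its first 3 members. CRK36 (AT4G04490), a kinase that acts on the immune kinase BIK1, had ratios of 1.59 and 1.21 in brm and 1.44 and 1.27 in wt. CRK37 (AT4G04500) had 2.37 and 1.69 in brm and 2.53 and 3.74 in wt. CRK38 (AT4G04510) had 2.78 and 2.63 in brm and 3.53 and 2.90 in wt. CRK39 and CRK40, the last members, were low. CRK39 had 0.16 and 0.15 in brm and 0.23 and 0.38 in wt, and CRK40 had 0.097 and 0.042 in brm and 0.16 and 0.17 in wt. The gap between CRK38 and CRK39 was larger than the spread between replicates in both genotypes.

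In the CRK30-CRK34 array CRK33 (AT4G11490) was highest, with ratios of 1.40 and 1.52 in brm and 1.19 and 1.91 in wt. CRK34 was lowest, with 0.24 and 0.11 in brm and 0.22 and 0.23 in wt. CRK30, CRK31 and CRK32 lay between, from 0.50 to 0.81 in brm and from 0.34 to 0.96 in wt over single libraries. At most 1 other gene between neighbours, in place of 3, would leave CRK34 out of the array.

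The CRK5-CRK24 array ran from CRK11, at 0.071 and 0.068 in brm and 0.063 and 0.093 in wt, to CRK23, at 1.65 and 1.65 in brm and 1.96 and 2.82 in wt. CRK11 is induced by pathogens and salicylic acid. CRK7, which takes part in the response to extracellular reactive oxygen, followed CRK23, with 1.27 and 1.21 in brm and 1.53 and 2.27 in wt. CRK6, which lies next to CRK7, had 0.725 and 0.779 in brm and 0.587 and 1.33 in wt, so that its replicates in wt stood far apart. CRK24, the last member, had 0.945 and 1.14 in brm and 1.03 and 1.33 in wt. CRK5, the first member, had 0.49 and 0.39 in brm and 0.70 and 0.57 in wt. CRK10, CRK13 and CRK19 lay near the median of all genes, with means of 0.16 to 0.21 in brm and 0.15 to 0.16 in wt. High and low members were interspersed along the array. CRK10 and CRK11, both low, stand between CRK8 and CRK12, which averaged 0.82 and 0.61 in brm and 0.82 and 1.13 in wt.

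Input levels differed between the genotypes over these genes. The brm input exceeded the wt input at 33 of 38 members, against 61.4% of protein-coding genes, and the median of brm input over wt input was 1.11 for the members and 1.06 for protein-coding genes. At CRK37 the input had 25.5 RPM in brm and 16.4 RPM in wt. The part of the inputs, each a single library, in differences of the ratio between genotypes was not tested. The comparison of genotypes below uses the ChIP reads alone.

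**Figure D2:**
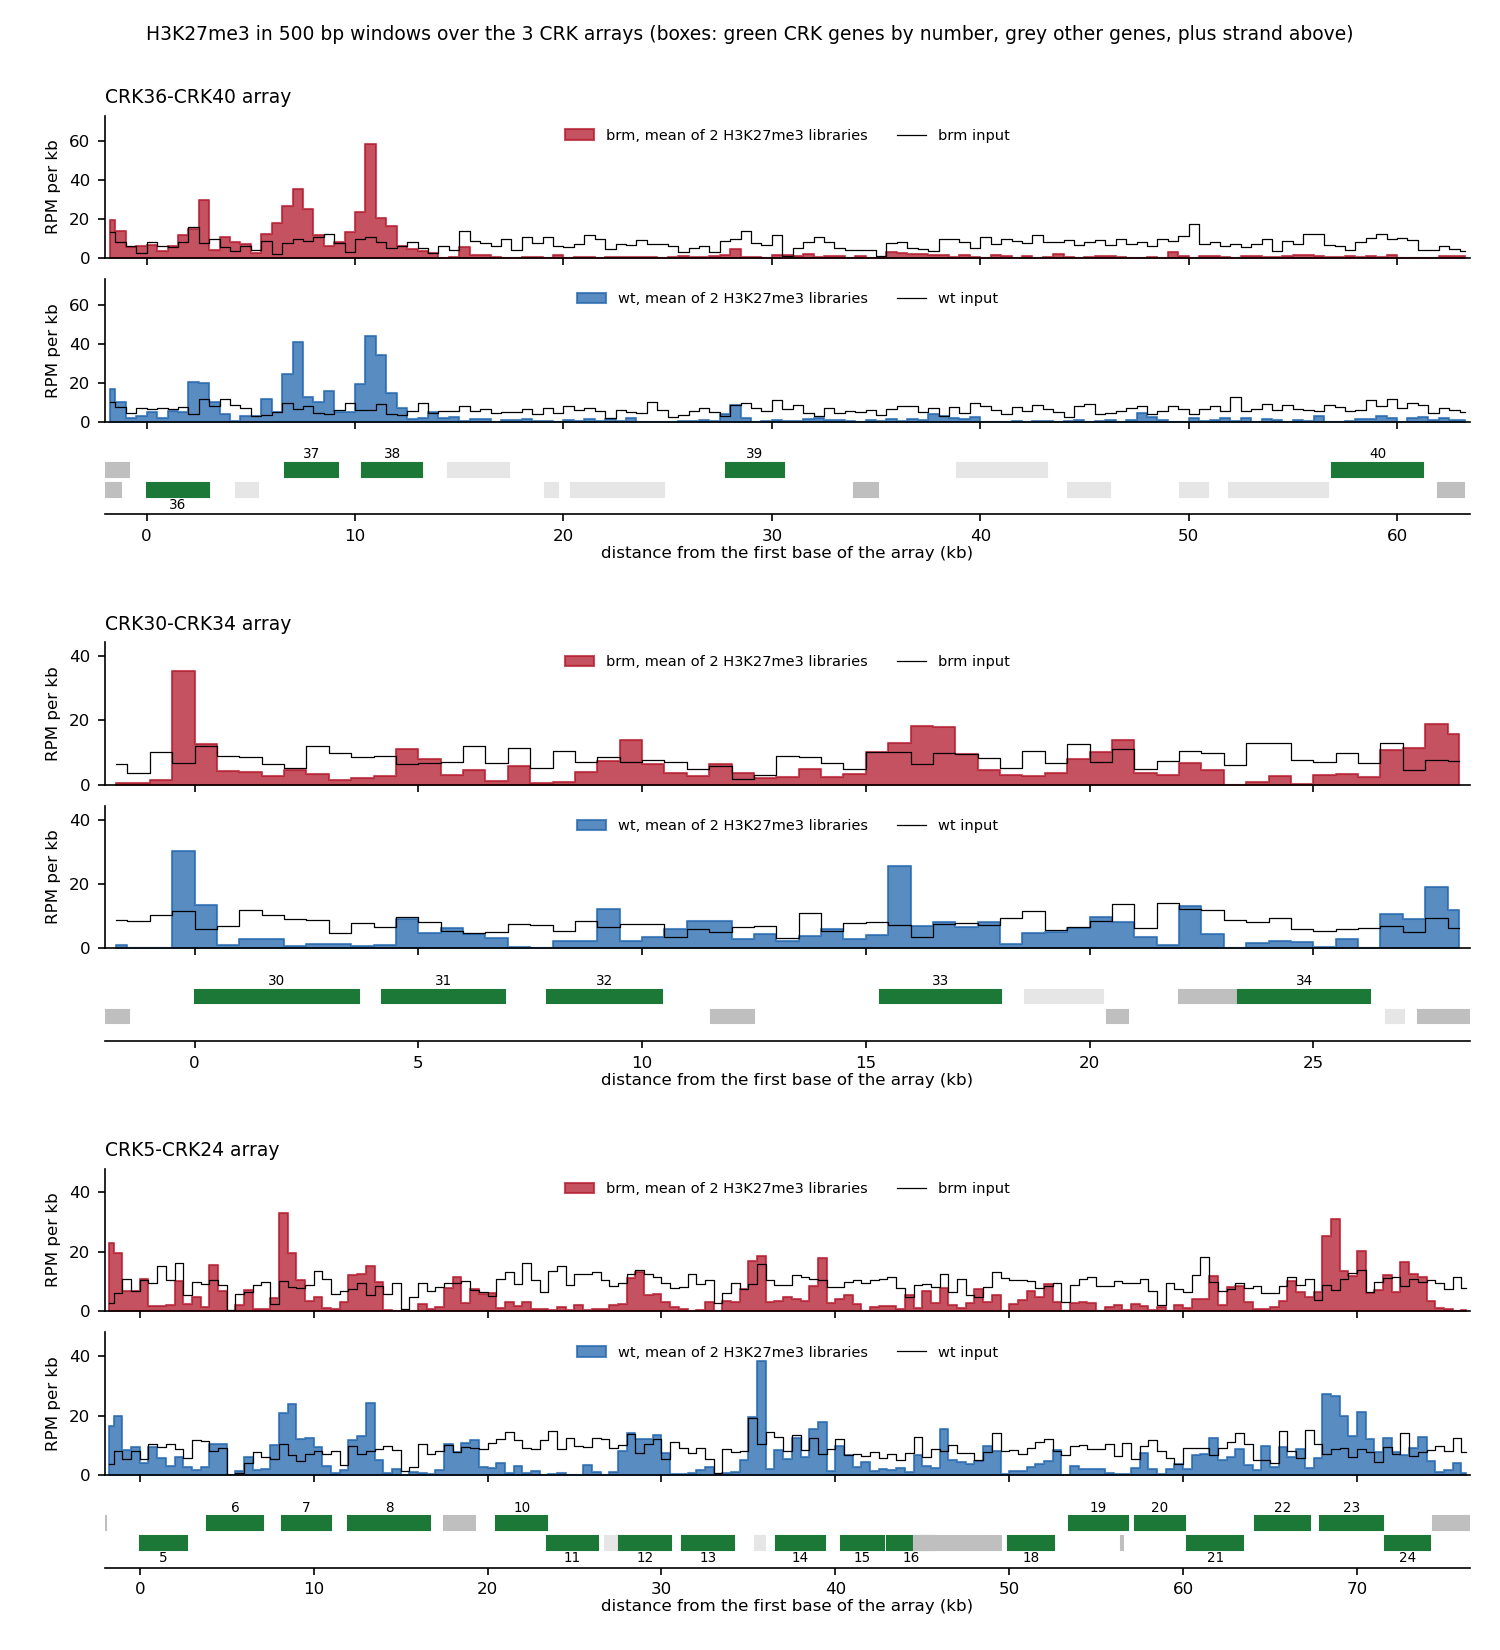
H3K27me3 RPM per kb in windows of 500 bp along the 3 arrays, with brm above wt for each array, the mean of 2 libraries filled and the input as a black line, against distance from the first base of the array. Among CRK genes, signal above input stands at CRK36, CRK37 and CRK38, at the start of CRK30, at CRK33, and at CRK7, CRK8 and CRK23. The ratios of CRK39 and CRK40 over their whole spans stay below 0.4.

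Regions of H3K27me3 were rebuilt as enriched islands found in both replicates of a genotype, and a gene was called marked when such regions covered at least 50% of its span. In brm 4 of 38 members were marked, and in wt 4. Of all 27444 protein-coding genes 22.2% were marked in brm and 21.8% in wt. CRK4, CRK42 and CRK37 were marked in both genotypes, with 96.4%, 81.6% and 63.9% of the span covered in brm and 96.4%, 81.6% and 62.7% in wt. CRK33 was marked in brm alone, with 59.2% of its span covered in brm and no region in wt. CRK23 was marked in wt alone, with 44.5% covered in brm and 77.9% in wt. Read counts of CRK33 and CRK23 overlapped between genotypes (adjusted p = 0.90 and 0.946, edgeR), so the read counts showed no difference larger than the spread between replicates.

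A region touched 10 members in brm and 9 in wt, close to the 27.2% and 26.7% of protein-coding genes with any region. The other members touched in both genotypes were CRK36, CRK38, CRK7, CRK8 and CRK30. No region was found at 28 members, 20 of them in arrays, whose ratios reached 1.04 in brm and 1.18 in wt. The mark on array members came as short segments rather than as one domain over the array. Regions that touched array members were 400 to 2800 bp long in brm and 800 to 2800 bp in wt. Their median length was 1200 bp in brm and 1000 bp in wt, against 2200 bp in brm and 2000 bp in wt for all regions of the genome. Within array members 87.9% of the covered bases in brm and 81.4% in wt fell between the gene start and its midpoint, called the 5′ side here.

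At CRK37 and CRK38 the brm region reached 1169 and 871 bp upstream of the gene start. In wt the regions began 31 bp after the start of CRK37 and 71 bp before that of CRK38. These are borders of called regions. Reads over the regions of both genotypes joined overlapped between brm and wt at both genes. The log2 fold changes were 0.30 ± 0.22 (SE, adjusted p = 0.508) at CRK37 and 0.11 ± 0.21 (adjusted p = 0.824) at CRK38 in edgeR. The upstream stretches alone were not tested. At CRK30 (AT4G11460) the region of both genotypes covered the first 280 bp of the gene and 520 bp before it, and the ratio over that region was 3.75 and 2.29 in brm and 2.73 and 2.73 in wt. At CRK4 the region ran from 1139 bp upstream to 3060 bp downstream of the gene start in both genotypes. At CRK42 it began 679 bp after the gene start and passed the end of the gene.

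Along the gene, the summed ratio of array members was highest near the start. Summed over the 28 array members, the ratio was 1.13 in brm and 1.48 in wt in part 2 of 10 equal parts of the gene, compared with 0.33 in brm and 0.30 in wt in part 10. The 5′ side had a higher ratio than the 3′ side in 20 of 28 array members in brm and 18 of 28 in wt. The median over array members was 0.63 on the 5′ side and 0.36 on the 3′ side in brm, but 0.57 on the 5′ side and 0.66 on the 3′ side in wt, where the medians ran the other way. Of protein-coding genes marked in both genotypes, 63.3% in brm and 62.5% in wt had the higher ratio on the 5′ side, so a 5′ lean was also usual among marked genes. CRK7 had ratios of 2.48 in brm and 2.89 in wt over its 5′ side and 0.29 in brm and 1.03 in wt over its 3′ side. CRK38 had 3.94 in brm and 5.38 in wt over its 5′ side, and 0.98 in brm and 0.68 in wt over its 3′ side. CRK4 stayed at 1.19 or more in all 10 parts of its span in every library. CRK32 leaned the other way, with 0.25 in brm and 0.36 in wt over the 5′ side and 1.32 in brm and 0.83 in wt over the 3′ side.

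**Figure D3:**
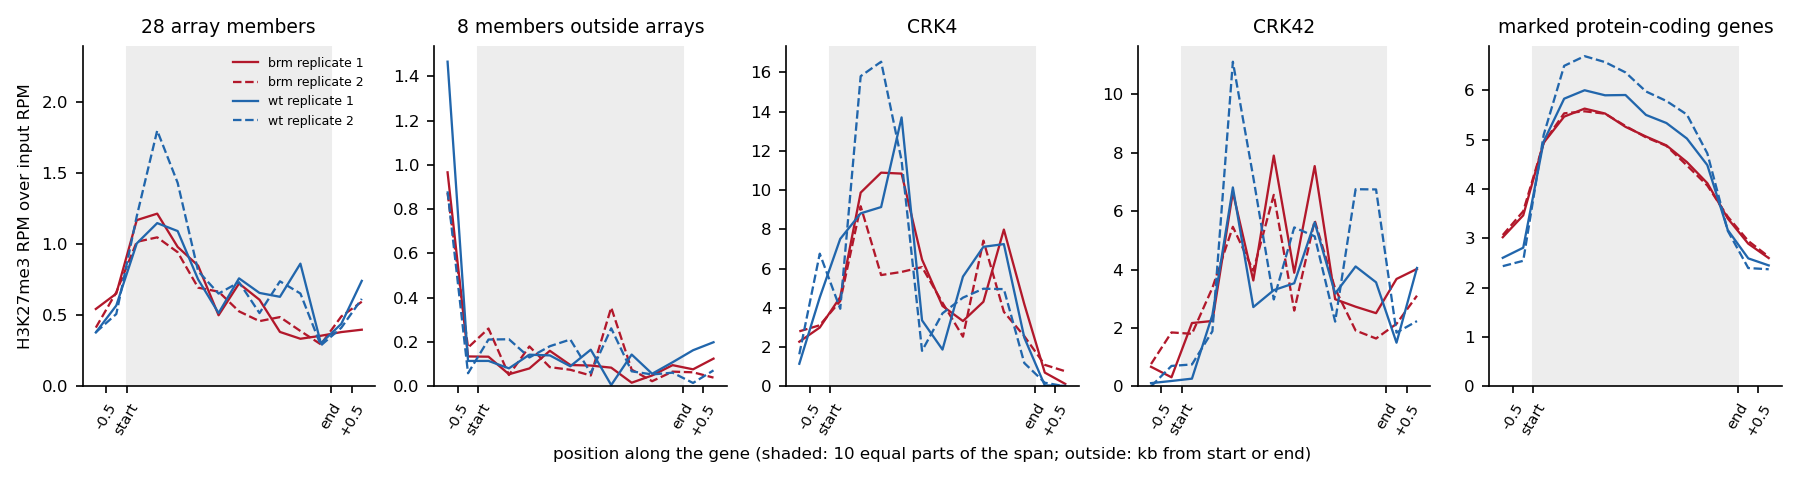
Ratio of H3K27me3 RPM to input RPM along the gene, in 10 equal parts of the span (shaded) and in steps of 500 bp for 1 kb on each side, with 1 line per library (brm red, wt blue, replicate 2 dashed) and an axis of its own in each panel. Array members peak in the first 3 parts and fall toward the end, members outside the arrays other than CRK4 and CRK42 stay below 0.4 inside the gene, and marked protein-coding genes form a broad plateau.

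The 200 bases before the gene start are shown for the 4 members whose upstream sequence lay inside a region, and for CRK11 as an array member with almost no signal. The region covers this sequence in both genotypes at CRK4 and CRK30 and in brm alone at CRK37 and CRK38. Capitals mark matches, on either strand, to the telobox AAACCCTA and the repeat GAGAGA, both known in promoters bound by plant Polycomb recruiters, and to the W box TTGACC or TTGACT, the site of WRKY factors. Matches of different motifs could overlap.
CRK4 (chr3:16866262-16866461, minus strand): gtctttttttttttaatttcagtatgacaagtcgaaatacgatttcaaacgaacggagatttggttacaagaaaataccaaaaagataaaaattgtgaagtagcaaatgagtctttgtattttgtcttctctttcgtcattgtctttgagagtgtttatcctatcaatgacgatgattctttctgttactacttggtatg
CRK30 (chr4:6963321-6963520, plus strand): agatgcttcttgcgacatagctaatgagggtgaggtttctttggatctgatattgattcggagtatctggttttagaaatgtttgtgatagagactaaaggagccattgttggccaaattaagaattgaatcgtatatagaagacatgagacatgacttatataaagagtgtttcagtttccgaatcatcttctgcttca
CRK37 (chr4:2238170-2238369, plus strand): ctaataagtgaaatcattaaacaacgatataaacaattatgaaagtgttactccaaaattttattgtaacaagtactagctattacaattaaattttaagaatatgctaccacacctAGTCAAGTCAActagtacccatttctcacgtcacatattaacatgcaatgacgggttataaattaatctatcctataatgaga
CRK38 (chr4:2241872-2242071, plus strand): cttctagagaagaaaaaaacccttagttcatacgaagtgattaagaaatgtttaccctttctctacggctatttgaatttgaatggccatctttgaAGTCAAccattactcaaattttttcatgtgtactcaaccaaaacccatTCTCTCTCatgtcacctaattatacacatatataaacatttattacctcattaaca
CRK11 (chr4:12143859-12144058, minus strand): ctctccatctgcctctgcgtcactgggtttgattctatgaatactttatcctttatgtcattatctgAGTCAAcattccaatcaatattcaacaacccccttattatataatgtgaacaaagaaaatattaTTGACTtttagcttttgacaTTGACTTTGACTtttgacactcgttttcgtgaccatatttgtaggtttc
No member had a telobox in these 200 bases, against 3.72% of the 27444 protein-coding genes. The GAGAGA repeat occurred at 8 of 38 members and 17.2% of protein-coding genes. A W box occurred at 23 of 38 members, that is 60.5%, and at 24.3% of protein-coding genes. It occurred at 6 of the 10 members with a region and at 17 of the 28 without. Among the 28 array members, many of them copies of one another, it occurred at 18, so these are counts and not a test. The 200 bases also do not lie at a like place in every member. The coding sequence begins 0 bp after the gene start at CRK8 and 1429 bp after it at CRK40. CRK11 had 4 W box matches. CRK37 had 2 and CRK38 had 1, and CRK4 and CRK30 had no match to any motif.

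Between brm and wt no CRK gene passed a false discovery rate of 0.05 in edgeR's quasi-likelihood test. All 38 members were tested, and 1, CRK12, had an unadjusted p under 0.05. Over all 30906 genes tested 0.0777% were called higher in brm and 0.0971% lower, so few calls were made anywhere. DESeq2 gave an adjusted p for 33 of the members and called none of these. The median log2 fold change of the members was -0.0011, compared with -0.050 for all genes, and 19 were positive and 19 negative. The standard error of a member's log2 fold change was 0.16 to 1.14, with the largest errors at the members with the fewest reads. Both brm libraries lay above both wt libraries at 4 of 38 members, against 17.4% of all genes tested, and below both at 7 of 38, against 20.2%.

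CRK12 (AT4G23200, chr4:12145035-12148041) had the smallest p among the members. It had 23.8 and 18.1 RPM in brm and 31.2 and 36.1 RPM in wt, with inputs of 34.5 RPM in brm and 29.8 RPM in wt. Both brm libraries were below both wt libraries (log2 fold change -0.68 ± 0.30 (SE), unadjusted p = 0.0312, adjusted p = 0.588, edgeR quasi-likelihood test). With 1 read kept per position and strand, the test called CRK12 lower (-0.98 ± 0.21 on the log2 scale, edgeR adjusted p = 0.0407). That call was lost without brm replicate 2. Fits with 1 library left out keep a single library of 1 genotype. The share of all genes called in them was not counted, so they do not show how firm the call is. CRK14, which also had both brm libraries below both wt libraries, had 21.3 and 20.2 RPM in brm and 34.3 and 28.9 RPM in wt (adjusted p = 0.652). Between CRK13 and CRK14 the pseudogene AT4G23215 had 11.8 and 9.51 RPM in brm and 19.5 and 22.6 RPM in wt (log2 fold change -0.98 ± 0.38 (SE), adjusted p = 0.535). Regions covered 89.5% of this pseudogene in both genotypes, and its mean ratio to input was 1.19 in brm and 3.61 in wt. It had the lowest log2 fold change of the 7 pseudogenes tested out of 10 inside the arrays. Their values reached 1.67, at AT4G04495, with a median of -0.031, and none was called. CRK13, a kinase whose overexpression raises salicylic acid and disease resistance, had 5.0 and 4.52 RPM in brm and 0.93 and 4.97 RPM in wt, which overlap.

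The 4 largest negative log2 fold changes with libraries that did not overlap were those of CRK40, CRK39, CRK12 and CRK22. CRK40 had 3.54 and 1.55 RPM in brm and 5.96 and 6.63 RPM in wt (log2 fold change -1.30 ± 0.71 (SE), adjusted p = 0.708). CRK39 had 4.48 and 4.16 RPM in brm and 5.25 and 8.73 RPM in wt (-0.69 ± 0.62, adjusted p = 0.858). CRK22 had 14.3 and 10.1 RPM in brm and 19.9 and 18 RPM in wt (-0.63 ± 0.38, adjusted p = 0.738). All 3 lay below the input level in every library. CRK20, at 2.71 and 4.28 RPM in brm, had 13.3 and 3.54 RPM in wt, where the replicates differed more than the genotypes.

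The 4 largest positive ones were those of CRK18, CRK32, CRK30 and CRK36. CRK18 had 11.2 and 16.6 RPM in brm and 6.66 and 10.1 RPM in wt (log2 fold change 0.73 ± 0.46 (SE), adjusted p = 0.761). CRK32 had 15.4 and 16.5 RPM in brm and 11.7 and 9.94 RPM in wt (0.56 ± 0.40, adjusted p = 0.802). CRK30 had 17.6 and 16.2 RPM in brm and 13.2 and 10.3 RPM in wt (0.53 ± 0.39, adjusted p = 0.813). CRK36 had 41.4 and 31.6 RPM in brm and 31.1 and 27.5 RPM in wt (0.32 ± 0.27, adjusted p = 0.842). The brm and wt libraries of CRK36 nearly met, and none of these differences passed the test.

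The members with the most H3K27me3 had the smallest errors and showed fold changes near 0. CRK4 had 202.4 and 154.0 RPM in brm and 179.1 and 190.2 RPM in wt (log2 fold change -0.05 ± 0.16 (SE), adjusted p = 0.976). CRK42 had 128.7 and 110.7 RPM in brm and 99.5 and 140.4 RPM in wt (-0.0027 ± 0.18, adjusted p = 0.998). CRK38 had 62.1 and 58.9 RPM in brm and 62.9 and 51.7 RPM in wt (0.08 ± 0.21, adjusted p = 0.969). CRK37 had 60.6 and 43.3 RPM in brm and 41.5 and 61.3 RPM in wt (0.02 ± 0.24, adjusted p = 0.995). CRK23 and CRK7, which followed by ratio in wt, had log2 fold changes of -0.13 ± 0.22 (adjusted p = 0.946) and -0.17 ± 0.26 (adjusted p = 0.939). CRK33 had 33.1 and 35.8 RPM in brm and 22.2 and 35.5 RPM in wt (0.26 ± 0.29, adjusted p = 0.90).

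**Figure D4:**
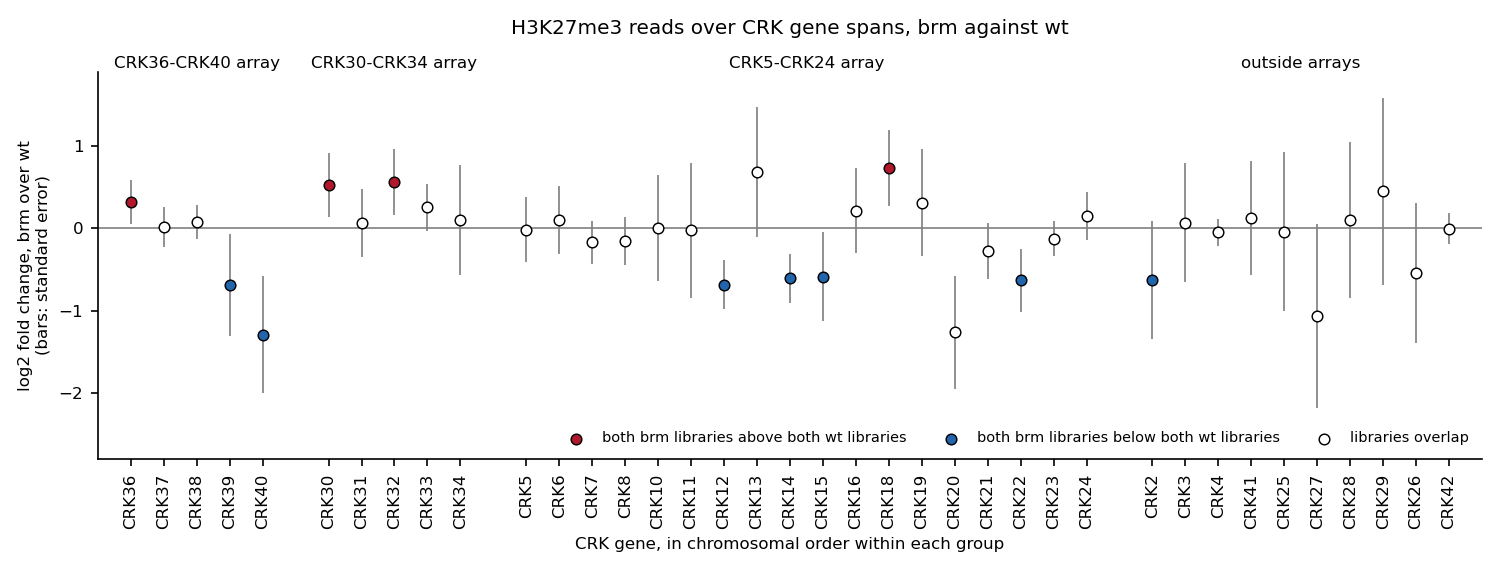
The log2 fold change of H3K27me3 reads, brm over wt, of each CRK gene, with bars of 1 standard error from the edgeR fit, coloured by whether both brm libraries lay above (red), below (blue) or within (white) the wt libraries. Highly marked members such as CRK4 and CRK42 have short bars at 0, and the members far from 0, such as CRK40 and CRK20, have long bars.

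Counting reads over regions instead of gene spans gave no call either. Of the 10 regions that touched a member in either genotype, none was called, with log2 fold changes from -0.43 to 0.30 and adjusted p from 0.508 to 0.990. Over all 6594 regions 1.74% were called higher in brm and 1.17% lower. The region at CRK4 had 220.8 and 177.4 RPM in brm and 193.6 and 214.3 RPM in wt (log2 fold change -0.03 ± 0.13, adjusted p = 0.921). The region at CRK8 had the lowest value, with 16.6 and 18 RPM in brm and 18.3 and 28.2 RPM in wt (-0.43 ± 0.34, adjusted p = 0.554).

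Summed over each whole array, reads did not pass the test either. The CRK5-CRK24 array had 398.3 and 373.3 RPM in brm and 418.2 and 494.5 RPM in wt, so that both brm libraries were below both wt libraries (log2 fold change -0.24 ± 0.14 (SE), adjusted p = 0.713). The CRK36-CRK40 array had 258.5 and 225.5 RPM in brm and 206.6 and 234.4 RPM in wt (0.13 ± 0.15, adjusted p = 0.899). The CRK30-CRK34 array had 126.8 and 148.4 RPM in brm and 125.2 and 123.7 RPM in wt (0.14 ± 0.16, adjusted p = 0.903), and all 5 of its members had log2 fold changes above 0.

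Reads that fit more than 1 place had been removed, which matters for copied genes. A median of 98.6% of the 37-base windows of a member occurred once in the nuclear genome. The share was under 90% at 4 members: CRK6 with 67.0%, CRK8 with 75.9%, CRK13 with 85.8% and CRK22 with 86.7%. Reads from the remaining windows were not counted in ChIP or input, so the RPM of these 4 members covers only part of the gene. Besides CRK28 and CRK29, members that share bases of their span with another gene are CRK10 and CRK11 (32 bp), CRK16 and EMB1290 (1190 bp), CRK19 and AT4G23271 (102 bp), CRK25 and ATK5 (492 bp), CRK29 and the RNA gene AT4G03065 (305 bp), and CRK42 and AT5G40382 (130 bp).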

How the data were processed

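Each deposited file lists 1 mapped read of 37 bp per line, so read counts here are counts of deposited lines, not normalized by the authors. Its score column, which the authors left at 0, was not used. The authors mapped reads with Bowtie 0.12.7 to TAIR10, keeping perfect, unique matches, and called regions with SICER 1.1, which was not used here. Positions fitted TAIR10.1, whose annotation was used.

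The 5′ ends were shifted by 75 bp and counted per gene span. Counts were tested with edgeR 4.0.16 (glmQLFit, robust, filterByExpr, total nuclear reads as library size, Benjamini-Hochberg over all genes and arrays, threshold 0.05). DESeq2 1.42.0 was an alternative. Islands were built from 200 bp windows (p 0.2, gap 600 bp, Poisson test against the input of the same genotype, adjusted 0.01, 1 read per position and strand). The edgeR steps were tested on simulated data.

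Named were members past the threshold, the 6 highest and 6 lowest wt ratios, the 4 largest changes in each direction without overlap, members marked in 1 genotype, array members and the immune list. Members and lists were chosen with earlier results of these data known. Alternatives were TMM, DESeq2, no filter, single reads per position, no shift, flanks of 500 bp, a replicate block, leaving out each library, and other thresholds for regions. Further ones, chosen after seeing the data, were region counts and single reads with each library left out.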

Additional observations from a re-analysis of the deposited data

How the results depend on the processing

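Among the members tested, none was called higher in brm under any of the 11 alternative fits, and none lower except CRK12, 1 call with 1 read per position and strand. All 38 were tested except with DESeq2, 33, and with 1 read per position and strand, 31. With that setting and 1 library left out, chosen after seeing the data, the call of CRK12 was lost without brm replicate 2. Those fits keep a single library of 1 genotype, and the share of all genes called in them was not counted. The log2 fold changes of CRK12 were -0.98 with all libraries, -0.75 without brm replicate 2, and -1.22, -0.90 and -1.06 in the 3 other fits. The median log2 fold change of the members ran from -0.22 to 0.16 as single libraries were left out. Of 15 members whose fold change is given, 8 kept their sign in every fit and 7 did not, none of them called. CRK42 was 0.035 with TMM, 0.027 with DESeq2, 0.00072 with no shift and 0.014 with the replicate block, and CRK7 was 0.20 over its region. As single libraries were left out, log2 fold changes ran from -0.26 to 0.13 at CRK4, from -0.25 to 0.33 at CRK37, from -0.057 to 0.23 at CRK38, from -0.041 to 0.64 at CRK33, from -0.42 to 0.14 at CRK7, from -0.37 to 0.16 at CRK23 and from -0.23 to 0.27 at CRK42. Replicate numbers did not pair the samples: the differences between replicates 1 and 2 correlated at r = 0.02 between genotypes over 30906 genes. With the replicate block no member was called, and over all genes 86 were called higher and 94 lower, against 24 and 30 without it. Those counts were 72 and 61 with DESeq2, 79 and 105 with no filter, 110 and 101 with 1 read per position and strand, 78 and 56 with flanks, and 8 to 269 higher and 10 to 627 lower as single libraries were left out. The highest counts came without wt replicate 1. Any overlap of 1 bp in place of 50% gave 10 marked members in brm and 9 in wt, and the islands of brm replicate 2 alone gave 6. CRK23 was marked in brm under both of these settings. CRK33 was not marked in brm with a gap of 200 bp. With a ratio of at least 2 in both libraries as the rule, neither CRK33 in brm nor CRK23 in wt was marked. The input of the other genotype moved the median ratio to 0.50 in brm and 0.37 in wt. With 2 libraries per genotype and 5 to 1942 reads per member, even large differences at members below the input level could go uncalled at this depth. CRK40, with a log2 fold change of -1.30 ± 0.71 (SE), had an adjusted p of 0.708 in edgeR.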

Other observations

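Secreted and plasmodesmal proteins related to the CRKs have DUF26 repeats but no kinase. Of 28 cysteine-rich repeat secretory proteins, 11 were marked in brm and 11 in wt, against 22.2% and 21.8% of all protein-coding genes. The test covered 16 of them, with median ratios of 6.23 in brm and 6.85 in wt. Those medians include ratios that rest on fewer than 10 input reads. AT3G21930, for example, had a ratio of 46.5 in brm, where its input had 0.18 RPM. The other 12, such as AT4G20530, had no read in any library, inputs included, and so could not be marked. Of the 8 plasmodesmata-located proteins (PDLPs), 4 were marked in brm and 4 in wt, against the same shares. Their median ratios were 3.14 in brm and 2.56 in wt. PDLP4 had 111.8 and 122.9 RPM in brm and 108.1 and 148.7 RPM in wt, which overlap. PDLP1 had 9.69 and 14.2 RPM in brm and 4.09 and 2.54 RPM in wt, the largest positive log2 fold change of this list (1.84 ± 0.57 (SE), adjusted p = 0.380, edgeR). Neither list had a gene past the threshold.

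The lists of other receptor kinases were short. None of 4 LECRK genes was marked in either genotype, and 1 of 12 WAK and WAKL genes was marked in brm and 1 in wt, against 22.2% and 21.8% of all protein-coding genes, with median ratios of 0.35 and 0.20 in brm and 0.30 and 0.26 in wt. Of 13 immune and reactive oxygen genes none passed the test. PR1, a marker of the salicylic acid response, was the 1 marked gene of that list in both genotypes, with 63.3 and 64.0 RPM in brm and 67.8 and 109.9 RPM in wt (log2 fold change -0.48 ± 0.22 (SE), adjusted p = 0.603). RBOHF followed, with 112.4 and 109.4 RPM in brm and 84.5 and 124.3 RPM in wt (adjusted p = 0.961). FLS2, EFR, CERK1, BAK1, BIK1, SOBIR1, RBOHD, EDS1, PAD4, NPR1 and ICS1 had mean ratios below 0.3 in both genotypes. EDS1 had 8.34 and 2.62 RPM in brm and 2.22 and 1.22 RPM in wt (log2 fold change 1.67 ± 0.81 (SE), adjusted p = 0.652), without overlap.

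Of the 5 protein-coding genes on each side of the arrays, 30 in all, 8 were marked in brm and 8 in wt, near the 22.2% and 21.8% over all protein-coding genes. AT4G23120, beside the CRK5-CRK24 array, was covered over 100% of its span in both genotypes. Of the 28 array members 2 were marked in brm and 2 in wt, and of the 7 other protein-coding genes inside the arrays none was. The differences between these counts were not tested. AT4G28670, a cysteine-rich receptor-like kinase with no CRK symbol, had 18.6 and 38.2 RPM in brm and 41.8 and 35.9 RPM in wt, and regions covered 31.4% of it in brm and 83.8% in wt. EMB1290, a further such kinase inside the CRK5-CRK24 array, had 20.1 and 19.7 RPM in brm and 25.3 and 37.7 RPM in wt (log2 fold change -0.66 ± 0.31 (SE), adjusted p = 0.628).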
